A study of Homo sapiens with 3 samples.

Results

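The 50 genes described here encode parts of the machinery that holds and moves chromosomes in mitosis: proteins of the centromere and kinetochore, of the spindle checkpoint, of the chromosomal passenger complex, the mitotic kinesins, other spindle proteins and proteins of cytokinesis. They were chosen by name, as rows with the listed symbols in the 3 count tables, and all 50 of 50 were found among 22499 genes with a symbol. They were grouped by role into 10 inner centromere genes, 9 outer kinetochore genes, 6 genes of the checkpoint and the fibrous corona, 5 of the passenger complex and the shugoshins, 10 kinesins, 7 spindle proteins and 3 genes of cytokinesis.

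The cells are CAMA-1, an established line of luminal breast cancer cells that express the estrogen receptor. A sensitive lineage labelled with the fluorescent transgene mVenus and a lineage resistant to the CDK4/6 inhibitor ribociclib, labelled with mCherry, were grown as spheroids started from 2000 cells that were 100% sensitive, 50% of each lineage or 100% resistant. Every spheroid received 1 µM ribociclib (label: DMSO and ribociclib) for 11 days, so no sample without the drug was analysed here. Each condition gave 1 library of single cells, and the cells fell into 4 populations: sensitive cells from monoculture (3329 cells) and from coculture (2059), and resistant cells from coculture (6292) and from monoculture (7557). Each lineage is 1 derivative of 1 cell line, and cells of a library are not replicates, so the conditions could not be compared by a test and p-values are left out. Every interval is a 95% interval for counting error only, and a difference between conditions cannot be told apart from a difference between their libraries.

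Before mitosis the centromere, marked by nucleosomes with the histone variant CENP-A, recruits the kinetochore, whose outer layer binds microtubules. Unattached kinetochores hold back anaphase through the spindle checkpoint, the passenger complex corrects wrong attachments, and kinesins and other microtubule binding proteins build the spindle and then the midzone at which the cell divides. Transcripts of many of these genes are known to be low in G1 and to accumulate from S phase to mitosis. A CDK4/6 inhibitor acts in G1, upstream of this programme, by keeping the retinoblastoma protein active.

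Promoters of such genes often carry a cell cycle homology element, TTTGAA or TTCGAA, close to the start of transcription, and upstream CCAAT boxes. A promoter window of 300 bases, from 250 bases before to 50 after the start, was found by symbol for 43 of the 50 genes in a RefSeq table (GRCh38.p14); CENPH, CENPM, KNL1, BUB3, BIRC5, TPX2 and RACGAP1 were not matched. TTTGAA or TTCGAA, on either strand, stood in 30 of the 43 windows (69.8%), against 16.6% of all 27305 windows in the table. CCAAT, on either strand, stood in 31 of the 43 (72.1%), against 35.7% of all. A window held the first motif together with CCAAT in 24 genes (55.8%), against 6.58% of all windows. GCGGGAA or GCGCGAA, on either strand, stood in 7 (16.3%), against 8.60% of all. In 27 of the 43 (62.8%) a TTTGAA or TTCGAA was centred within 50 bases of the start, a distance set after the positions had been seen, against 5.21% of all windows. The motifs were counted separately, so that neighbouring matches may share bases (CCAAT and TTTGAA can share a T), and a match describes the letters of a window, not a bound site.

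The windows of 4 genes are shown because they span the levels in G1 cells reported further on; they were chosen after those levels had been seen. NUSAP1 and SPC25 had large differences between the sensitive populations in G1, KIF20A was the gene most confined to G2M cells, and NSL1 had a G1 level of 68.0 to 80.4% of its G2M level. Each is written 5′ to 3′ on the strand of the gene, with each match to TTTGAA or TTCGAA and to CCAAT, on either strand, in capitals (NUSAP1 chr15:41332631-41332930, plus strand, and SPC25 chr2:168890381-168890680, minus strand, and KIF20A chr5:138178862-138179161, plus strand, and NSL1 chr1:212791728-212792027, minus strand, all GRCh38.p14).
NUSAP1: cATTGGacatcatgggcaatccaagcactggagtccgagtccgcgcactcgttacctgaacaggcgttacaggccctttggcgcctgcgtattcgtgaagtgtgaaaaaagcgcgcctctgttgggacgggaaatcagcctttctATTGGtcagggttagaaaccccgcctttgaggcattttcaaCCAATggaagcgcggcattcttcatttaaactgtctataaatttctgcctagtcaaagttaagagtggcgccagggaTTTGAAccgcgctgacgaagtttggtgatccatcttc
SPC25: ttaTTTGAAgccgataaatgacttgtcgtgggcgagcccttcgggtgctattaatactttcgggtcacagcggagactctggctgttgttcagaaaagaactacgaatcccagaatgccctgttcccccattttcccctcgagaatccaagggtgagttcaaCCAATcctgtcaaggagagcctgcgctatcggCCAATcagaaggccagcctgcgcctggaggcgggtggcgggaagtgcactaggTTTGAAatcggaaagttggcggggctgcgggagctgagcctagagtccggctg
KIF20A: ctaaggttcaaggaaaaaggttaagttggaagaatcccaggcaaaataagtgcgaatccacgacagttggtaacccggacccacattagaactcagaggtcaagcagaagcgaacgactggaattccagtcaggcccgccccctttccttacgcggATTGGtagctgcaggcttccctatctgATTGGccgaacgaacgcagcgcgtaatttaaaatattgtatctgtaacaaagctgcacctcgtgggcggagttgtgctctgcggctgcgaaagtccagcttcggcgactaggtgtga
NSL1: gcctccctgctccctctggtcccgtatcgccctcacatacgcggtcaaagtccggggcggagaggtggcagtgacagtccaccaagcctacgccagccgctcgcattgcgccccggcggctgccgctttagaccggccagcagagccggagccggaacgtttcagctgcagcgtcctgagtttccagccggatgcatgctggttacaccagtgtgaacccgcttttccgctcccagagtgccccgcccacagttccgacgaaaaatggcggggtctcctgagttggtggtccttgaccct
The NUSAP1 window held 1 TTTGAA or TTCGAA and 3 CCAAT, and the SPC25 window 2 of each. KIF20A held 0 of the first motif and 2 CCAAT, and NSL1 held 0 of either. These 4 windows do not stand for the rest: of the 34 matched genes with a G1 level under 50% of the G2M level in resistant monoculture 26 held TTTGAA or TTCGAA and 24 held CCAAT, and of the 9 at 50% or more 4 and 7 did, CENPC with both motifs and MIS12 with CCAAT among them. The build that the counts used was GRCh37. A GENCODE annotation lifted to that build places the protein coding gene NUSAP1 on chromosome 15 from 41612992 to 41673248 and SPC25 on chromosome 2 from 169690642 to 169769881. It places KIF20A on chromosome 5 from 137514408 to 137523412 and NSL1 on chromosome 1 from 212899495 to 212965124. These spans come from another source than the windows, so a window need not lie at the end of its span.

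The authors deposited a phase for each cell, called from canonical markers; the tool and the genes of that call are not given in the sources used here. Calls made anew with the published Seurat lists of S and G2M genes gave the deposited phase in 94.9 to 98.7% of cells by population. The counts of cells in G1, S and G2M were 2963, 176 and 190 for sensitive monoculture and 1138, 458 and 463 for sensitive coculture, while resistant cells had 3125, 1627 and 1540 in coculture and 3781, 2162 and 1614 in monoculture. Of the 50 genes 18 belong to the Seurat G2M list and may have helped to decide which cells were called G2M; the other 32 are in neither list, though the authors' call may have used other genes. The median cell held 27622 to 35443 unique molecular identifiers (UMIs, 1 per captured RNA molecule) by population, and 17, 8 and 7 cell barcodes were shared between pairs of libraries. The median mitochondrial percent was highest in sensitive monoculture (20.9) and 15.2 to 17.3 in the other populations. Of the luminal markers EPCAM, KRT8, KRT18, KRT19, GATA3 and ESR1, all 6 had UMIs in all 4 populations, ESR1 at 14.2 to 20.2 CPM (UMIs of a gene in 1000000 UMIs of the cells summed). Of 7 markers of other cell types, PTPRC had 0 to 2 UMIs per population, CD3E 0 to 3 and DCN 0 to 1, COL1A1 had 2.40 to 3.61 CPM, and COL1A2, ACTA2 and LYZ had 0 to 1.26 CPM.

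The 50 genes together took a larger part of the RNA from G1 through S to G2M in every population. Their summed level in G2M cells was 4462 CPM (4412 to 4512) for sensitive monoculture and 3927 CPM (3897 to 3957) for sensitive coculture, and resistant cells stood at 3891 CPM (3874 to 3908) in coculture and 3779 CPM (3764 to 3795) in monoculture. In S cells the sums lay between 2066 and 2181 CPM, nearly level across the populations. In G1 cells they were 689.9 CPM (684.3 to 695.6), 940.5 (930.6 to 950.4), 982.8 (976.4 to 989.2) and 973.8 (968.4 to 979.2) in the same order. Sensitive monoculture was thus the highest population in G2M and the lowest in G1, and its counting intervals did not meet those of the other 3 in either phase. Such intervals leave out the spread between cells and between libraries, and its G2M value rests on 190 cells. Per cell, the 50 genes gave 162, 144, 131 and 140 UMIs in G2M cells and 19.3, 30.5, 29.2 and 33.1 UMIs in G1 cells.

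**Figure D1:**
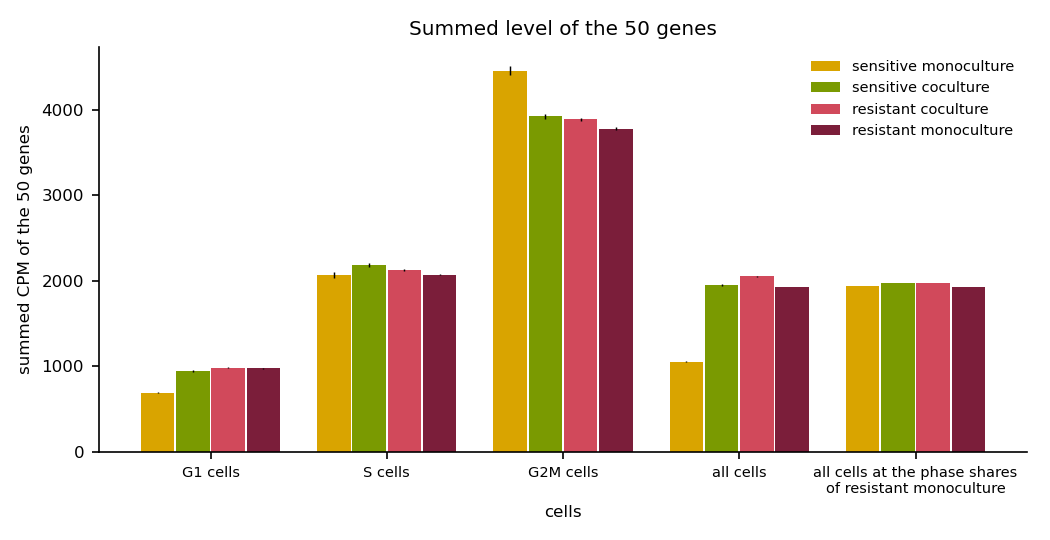
Summed level of the 50 genes (vertical axis, CPM of summed UMIs, from 0) by phase and population, each bar 1 population, with 95% counting intervals as thin lines. The last group of bars, without intervals, sets every population to the phase shares of resistant monoculture, taken as shares of UMIs. Sensitive monoculture has the lowest bar in G1 (690 CPM) and over all cells (1055 CPM) and the highest in G2M (4462 CPM), and at equal phase shares the bars lie between 1928 and 1978 CPM.

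Over all cells the sums were 1055, 1953, 2052 and 1928 CPM. With the CPM of each phase weighted by that phase's share of UMIs in resistant monoculture, they were 1942, 1978, 1974 and 1928 CPM. Those shares were 47.5% in G1, 30.4% in S and 22.1% in G2M. At equal phase shares the lower G1 and the higher G2M level of sensitive monoculture thus left its sum within the range of the others. When phases were called anew with the 50 genes removed from the Seurat lists, the G1 sums were 699, 958, 1021 and 1000 CPM and the G2M sums 4431, 3849, 3996 and 3794 CPM. Sensitive monoculture kept the lowest G1 and the highest G2M sum. These calls gave the deposited phase in 94.2 to 98.4% of cells by population. Few cells thus changed phase, and the sums are not free of the phase call. For the 32 genes outside the Seurat lists, with the deposited phases, the G1 sums were 463, 594, 631 and 635 CPM and the G2M sums 2085, 1832, 1839 and 1829 CPM.

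**Figure D2:**
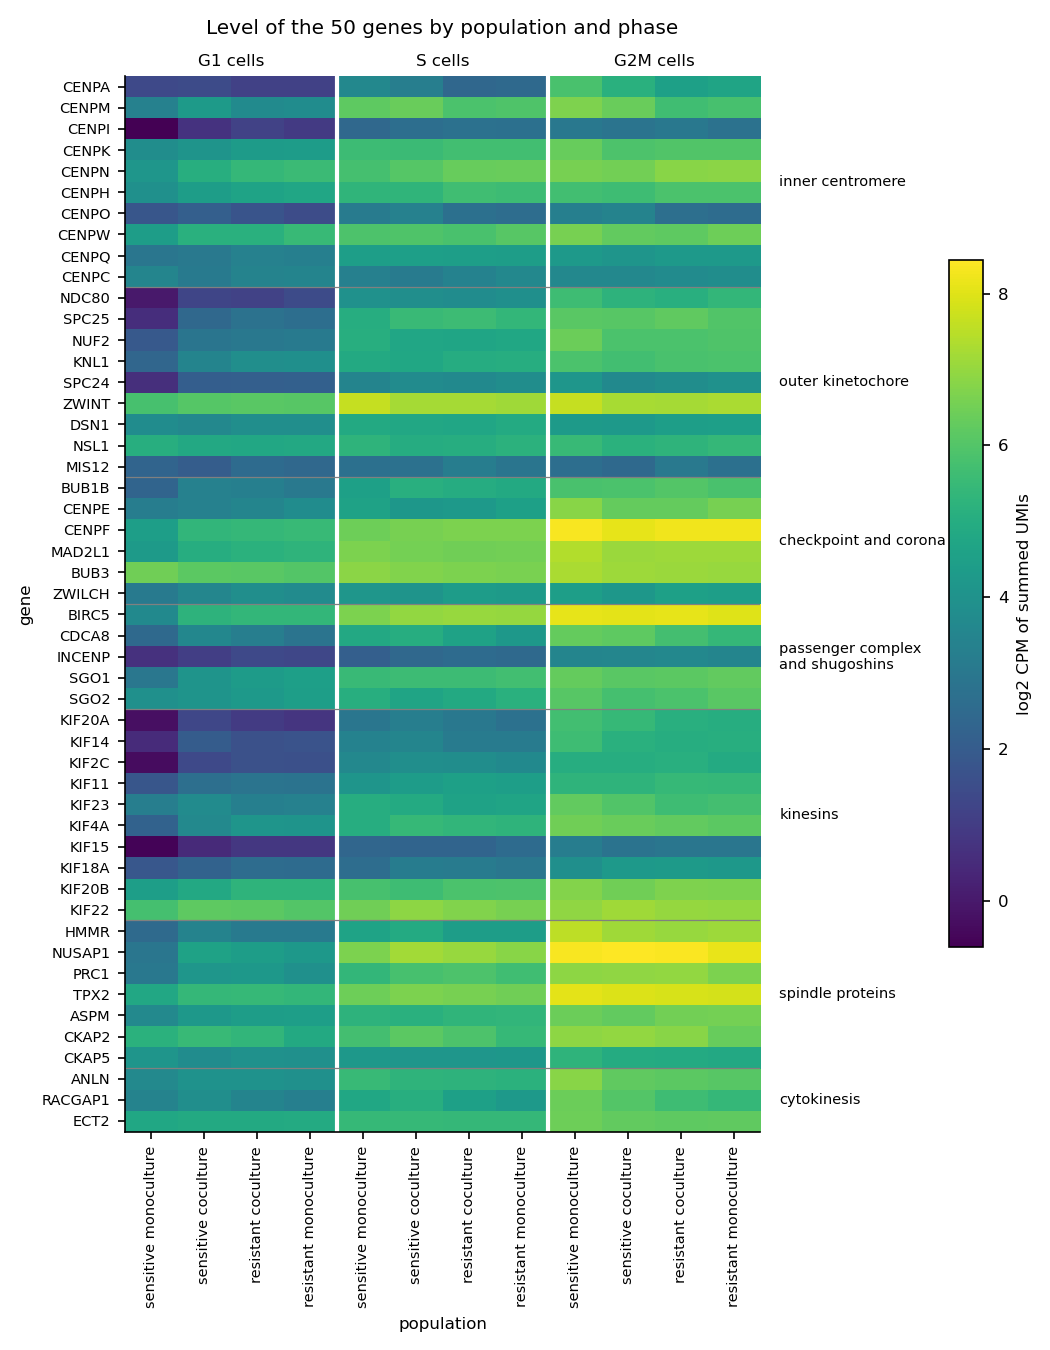
Level of each of the 50 genes (rows, grouped by role and, within a role, ordered by the G1 percent of G2M in resistant monoculture) in the 4 populations within G1, S and G2M cells (columns), as log2 of the CPM of summed UMIs on a colour scale. Most rows brighten from left to right, CENPC, MIS12, NSL1 and DSN1 change least, and the first G1 column, sensitive monoculture, is the darkest for 40 of the 50 genes.

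The level of a gene in G1 cells, as a percent of its level in G2M cells, had a median over the 50 genes of 11.5% for sensitive monoculture and 23.3% for sensitive coculture, with resistant cells at 25.6% in coculture and 24.9% in monoculture. It was lowest in sensitive monoculture for 44 of the 50 genes. In that population 22 genes stood under 10%, against 7, 8 and 8 in the other populations. Among the other 3 populations the values of a gene lay close together, with the highest a median of 1.11 times the lowest. For the 32 genes outside the Seurat lists the medians were 16.2, 26.5, 30.5 and 30.004%. In log2 terms the G2M level over the G1 level had a median of 3.12 for sensitive monoculture and 2.10 for sensitive coculture, with resistant cells at 1.97 in coculture and 2.003 in monoculture, beside 0.01 to 0.08 over all genes tested.

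More than 2-fold higher in G2M than in G1 cells were 45 of the 50 genes in sensitive monoculture, 43 in its coculture counterpart, 40 among resistant cells in coculture and 41 in resistant monoculture. Of all genes with at least 50 UMIs over both phases 4.99, 3.11, 3.12 and 3.34% were that much higher, in the same order. Since 18 of the 50 may have helped to call the phase, the 32 outside the Seurat lists are read apart: their median log2 ratios were 2.63, 1.92, 1.71 and 1.74. A second list of 36 kinetochore, centromere and spindle genes, among them BUB1, AURKB, PLK1 and the SKA genes and in part on the Seurat lists, had medians of 2.62, 1.85, 1.66 and 1.67, with 25, 24, 24 and 24 of the 36 more than 2-fold higher in G2M. Its genes on the Seurat lists were not set apart, so these values are not free of the phase call.

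**Figure D3:**
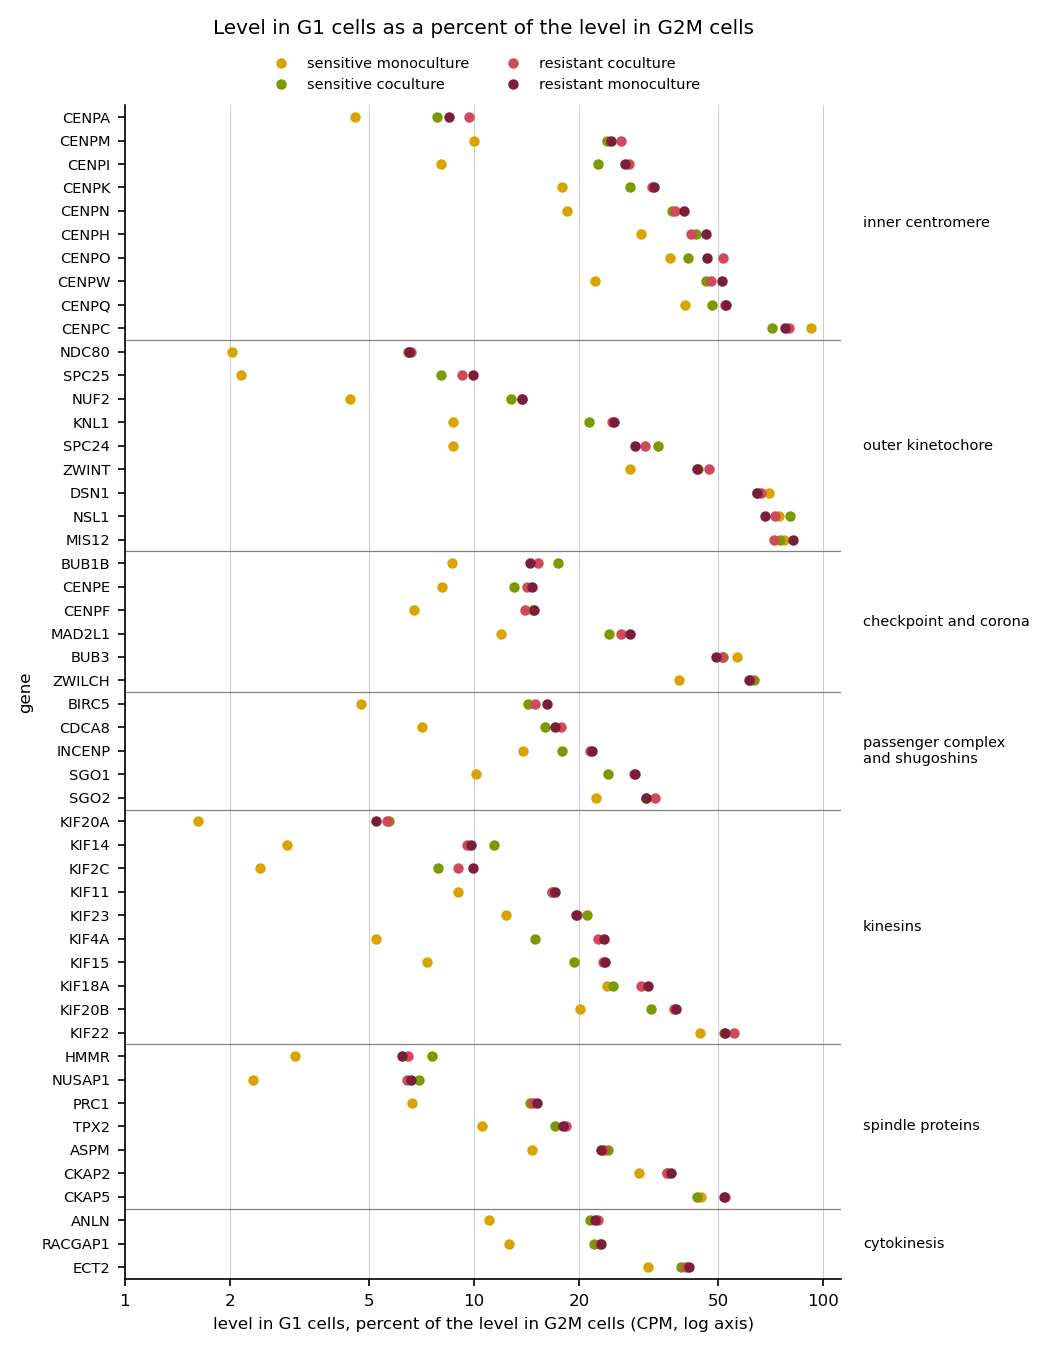
Level in G1 cells as a percent of the level in G2M cells (horizontal log axis, CPM over CPM) for each of the 50 genes (rows, by role), 1 point per population. The points of sensitive monoculture lie to the left for 44 genes, the other populations lie close together, and CENPC, DSN1, NSL1 and MIS12 lie farthest to the right, at 64.6% or more in all 4.

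In the paragraphs by role, CPM values follow 1 order: sensitive cells in monoculture, then in coculture, and resistant cells in coculture, then in monoculture. UMIs of a 3′ library count molecule ends and need no scaling by length, but capture differs between genes, so levels are compared between cells and not between genes.

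Among the inner centromere genes, CENPA, which encodes the histone variant that marks the centromere, stood at 57.3, 35.3, 22.9 and 25.7 CPM in G2M cells and at 2.62, 2.77, 2.22 and 2.18 CPM in G1 cells. Its G2M level was highest in sensitive monoculture and lower in both resistant populations than in sensitive coculture, while its G1 level was low throughout. CENPC, whose protein joins CENP-A nucleosomes to the outer kinetochore, stood at 12.3, 12.3, 13.5 and 14.2 CPM in G2M and 11.3, 8.76, 10.8 and 11.1 CPM in G1, so its G1 level was 71.4 to 92.0% of its G2M level. CENPM, a member of the CENP-H, CENP-I, CENP-K and CENP-M complex, stood at 104, 82.7, 50.3 and 56.3 CPM in G2M, higher in both sensitive than in both resistant populations, and at 10.4, 19.9, 13.2 and 13.9 CPM in G1. CENPK of the same complex stood at 80.2, 60.5, 62.8 and 63.7 CPM in G2M and 14.3, 16.9, 20.3 and 20.9 CPM in G1. CENPN, which binds CENP-A nucleosomes, stood at 96.3, 91.3, 113 and 117 CPM in G2M and 17.8, 33.8, 42.4 and 46.8 CPM in G1, with both resistant populations above both sensitive ones. CENPW, a histone fold protein that pairs with CENP-T, stood at 96.4, 76.6, 74.0 and 86.2 CPM in G2M and 21.4, 35.3, 35.3 and 44.3 CPM in G1. CENPO, of the complex that also holds CENP-Q, stood at 9.70, 10.7, 6.40 and 6.06 CPM in G2M, again higher in the sensitive populations, and at 3.53, 4.39, 3.30 and 2.81 CPM in G1. CENPH stood at 51.3, 49.2, 59.4 and 58.0 CPM in G2M and 15.4, 21.3, 24.8 and 26.7 CPM in G1. CENPI of the same complex stood at 8.11, 7.32, 8.06 and 7.03 CPM in G2M and 0.653, 1.65, 2.24 and 1.896 CPM in G1, and CENPQ at 19.3, 17.3, 19.6 and 18.8 CPM in G2M and 7.75, 8.33, 10.3 and 9.90 CPM in G1. CENPH, CENPI and CENPQ had G1 levels of 30.04 to 46.1, 8.05 to 27.8 and 40.2 to 52.7% of their G2M levels. CENPQ was higher in S than in G2M cells in all 4 populations, CENPM in 3 and CENPO in 2.

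The outer kinetochore holds the NDC80 complex, which grips microtubules, the MIS12 complex, which anchors it, and KNL1, a platform for checkpoint proteins. NDC80 stood at 48.9, 37.8, 34.3 and 41.6 CPM in G2M and 0.991, 2.44, 2.26 and 2.71 CPM in G1. NUF2, its partner in the complex, stood at 84.4, 58.9, 58.2 and 61.9 CPM in G2M and 3.72, 7.54, 7.96 and 8.46 CPM in G1. SPC25, a subunit at the inner end of the complex, stood at 69.7, 67.4, 75.0 and 62.9 CPM in G2M and 1.499, 5.42, 6.92 and 6.26 CPM in G1, and SPC24, its direct partner, at 17.7, 12.7, 14.0 and 15.5 CPM in G2M and 1.54, 4.29, 4.35 and 4.48 CPM in G1. These 4 subunits all had their lowest G1 level in sensitive monoculture. The MIS12 complex differed from them: MIS12 stood at 6.37, 5.61, 8.16 and 6.66 CPM in G2M and 4.91, 4.20, 5.91 and 5.45 CPM in G1. NSL1 of the same complex had 44.5, 35.6, 38.8 and 42.8 CPM in G2M and 33.3, 28.6, 28.3 and 29.1 CPM in G1, and DSN1 19.98, 18.9, 21.7 and 22.3 CPM in G2M and 14.0, 12.2, 14.4 and 14.5 CPM in G1. The G1 level of MIS12, NSL1 and DSN1 was 64.6 to 81.9% of the G2M level in every population, and MIS12 and DSN1 were higher in S than in G2M cells in all 4. ZWINT, a KNL1 binding protein, stood at 201, 153, 149 and 155 CPM in G2M and 56.4, 67.0, 69.8 and 67.6 CPM in G1. KNL1 itself stood at 59.4, 51.9, 57.9 and 58.7 CPM in G2M and 5.16, 11.0, 14.4 and 14.8 CPM in G1, and went from 8.69% of its G2M level in G1 cells of sensitive monoculture to 25.2% in resistant monoculture.

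Of the checkpoint and corona genes, BUB3, which carries checkpoint kinases to KNL1, stood at 156, 139, 135 and 132 CPM in G2M and 88.3, 71.8, 68.9 and 65.2 CPM in G1, with its highest G1 level in sensitive monoculture. MAD2L1, which encodes the inhibitor of anaphase MAD2, stood at 168, 134, 137 and 139 CPM in G2M and 20.1, 32.7, 36.1 and 38.9 CPM in G1, where its populations stood in the reverse of the order of BUB3. CENPF, a large corona protein, stood at 324, 273, 304 and 302 CPM in G2M and 21.9, 40.3, 42.5 and 44.8 CPM in G1. CENPE, a kinesin that carries chromosomes to the spindle equator, stood at 114, 78.8, 79.3 and 95.1 CPM in G2M and 9.25, 10.3, 11.2 and 14.0 CPM in G1. BUB1B, which encodes the checkpoint protein BUBR1, stood at 56.8, 58.9, 64.7 and 57.6 CPM in G2M and 4.92, 10.2, 9.89 and 8.30 CPM in G1. ZWILCH, of the complex that recruits dynein, stood at 22.0, 18.2, 23.3 and 22.3 CPM in G2M and 8.52, 11.5, 14.4 and 13.6 CPM in G1. The G1 level was thus 8.67 to 17.4% of the G2M level for BUB1B and 38.7 to 63.3% for ZWILCH.

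The passenger complex joins the kinase Aurora B to INCENP, survivin (BIRC5) and borealin (CDCA8), and the shugoshins protect cohesin at the centromere. BIRC5 stood at 272, 268, 277 and 257 CPM in G2M, level across the populations, and at 12.9, 38.2, 41.5 and 41.6 CPM in G1, with sensitive monoculture far below the others. CDCA8 stood at 79.2, 73.8, 53.3 and 43.0 CPM in G2M and 5.62, 11.8, 9.48 and 7.30 CPM in G1, so the order of the populations differed between the phases. SGO1 stood at 78.3, 69.0, 71.7 and 77.4 CPM in G2M and 7.95, 16.7, 20.6 and 22.4 CPM in G1. SGO2 stood at 67.5, 54.6, 59.2 and 70.4 CPM in G2M and 15.1, 17.0, 19.5 and 21.9 CPM in G1. INCENP, the scaffold, stood at 11.4, 11.7, 12.2 and 11.3 CPM in G2M and 1.58, 2.09, 2.62 and 2.46 CPM in G1, which was 13.8 to 21.8% of its G2M level.

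Among the kinesins, KIF20A, which takes the passenger complex to the midzone, stood at 52.3, 43.7, 34.6 and 32.9 CPM in G2M and 0.846, 2.495, 1.95 and 1.73 CPM in G1. The lowest of these values rests on 70 UMIs (0.66 to 1.07 CPM). Its G1 level was 1.62% of its G2M level in sensitive monoculture and 5.25 to 5.72% in the other populations, the lowest value of the 50 genes in each of the 4. KIF2C, a microtubule depolymerase at centromeres, stood at 32.7, 32.7, 34.4 and 30.2 CPM in G2M and 0.798, 2.58, 3.099 and 3.01 CPM in G1. KIF4A, a chromokinesin that also shapes the midzone, stood at 89.3, 83.1, 77.1 and 72.0 CPM in G2M and 4.68, 12.4, 17.4 and 16.9 CPM in G1; its counts are uncertain where reads match its retrocopy KIF4B. KIF22, a chromokinesin that pushes chromosome arms, stood at 123, 142, 127 and 125 CPM in G2M and 54.9, 73.7, 70.5 and 65.4 CPM in G1, and it kept a high share in G1. KIF20B, a midzone kinesin, stood at 109, 89.7, 104 and 101 CPM in G2M and 22.0, 28.8, 38.9 and 38.2 CPM in G1. KIF14, needed late in cytokinesis, stood at 48.9, 35.2, 32.2 and 33.2 CPM in G2M and 1.43, 4.01, 3.07 and 3.25 CPM in G1. KIF18A, which aligns chromosomes, stood at 14.8, 18.9, 20.04 and 18.4 CPM in G2M, lowest in sensitive monoculture, and at 3.55, 4.75, 6.01 and 5.80 CPM in G1. KIF11, which keeps the spindle poles apart, stood at 38.5, 38.8, 43.4 and 42.2 CPM in G2M and 3.47, 6.48, 7.25 and 7.17 CPM in G1. KIF15, a kinesin that can share that task, stood at 9.41, 7.14, 7.70 and 7.60 CPM in G2M and 0.689, 1.38, 1.80 and 1.80 CPM in G1. KIF23, of centralspindlin, stood at 77.6, 63.2, 49.6 and 53.0 CPM in G2M and 9.56, 13.3, 9.75 and 10.4 CPM in G1. These 3 had G1 levels of 9.01 to 17.0, 7.32 to 23.7 and 12.3 to 21.1% of their G2M levels, each lowest in sensitive monoculture.

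Of the spindle proteins, NUSAP1, which bundles microtubules, stood at 326, 347, 333 and 279 CPM in G2M and 7.58, 24.1, 21.4 and 18.4 CPM in G1. TPX2, the activator of Aurora A, stood at 265, 249.6, 240.1 and 229 CPM in G2M and 28.0, 42.4, 44.1 and 41.2 CPM in G1. HMMR, a spindle assembly protein also known as a hyaluronan receptor, stood at 187, 141, 132 and 137 CPM in G2M and 5.74, 10.7, 8.57 and 8.52 CPM in G1. These 3 were lowest in G1 in sensitive monoculture. PRC1, which crosslinks the microtubules of the midzone, stood at 120.3, 122, 126 and 101 CPM in G2M and 7.98, 17.6, 18.6 and 15.3 CPM in G1. CKAP2, a spindle microtubule binding protein, stood at 120.5, 126, 112 and 81.3 CPM in G2M and 35.8, 45.1, 40.3 and 29.8 CPM in G1, so resistant monoculture was its lowest population in both phases. CKAP5, a microtubule polymerase, stood at 38.7, 31.3, 29.9 and 29.0 CPM in G2M and 17.2, 13.7, 15.7 and 15.1 CPM in G1, and ASPM, a protein of the spindle poles, at 85.4, 76.8, 91.4 and 94.4 CPM in G2M and 12.5, 18.6, 21.5 and 21.9 CPM in G1.

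The cytokinesis genes had their highest G2M level in sensitive monoculture. ANLN, which links the contractile ring to the membrane, stood at 114, 74.2, 71.2 and 68.4 CPM in G2M and 12.6, 15.9, 16.2 and 15.2 CPM in G1. RACGAP1, the partner of KIF23 in centralspindlin, stood at 84.7, 65.3, 48.8 and 42.2 CPM in G2M and 10.7, 14.4, 11.2 and 9.75 CPM in G1. ECT2, the exchange factor that switches on RhoA, stood at 86.7, 75.9, 73.5 and 74.3 CPM in G2M and 27.2, 29.7, 29.8 and 30.6 CPM in G1.

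The study asked whether sensitive cells cycle more under the drug when grown beside resistant cells. Over all sensitive cells 47 of the 50 genes were higher in coculture than in monoculture, beside 5376 of all 12327 genes tested. The 50 genes had a median log2 ratio of 1.00, beside -0.06 over all genes. More than 2-fold higher were 25 of them, beside 3.39% of all genes tested. Among cells under 15% mitochondrial counts the median over the 50 genes was 0.56, and the median mitochondrial percent was 20.9 in sensitive monoculture and 17.3 in coculture. At 1.5-fold, in all cells, the count was 39, beside 8.6% of all genes, and at 3-fold 4, beside 0.909%. With the phase shares made equal the median over the 50 genes was 0.01. The question here is what remained within a phase.

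Within G1 cells 44 of the 50 genes were higher in sensitive coculture than in sensitive monoculture, beside 4845 of all 11978 genes tested. Of the 50 genes 17 were more than 2-fold higher, beside 2.59% of all genes, and 3 more than 3-fold higher, beside 0.601%. The median log2 ratio was 0.59, beside -0.08 over all genes, and 40 genes had a counting interval above 0, beside 23.1% of all genes. By role the medians were 0.39 for the inner centromere, 1.02 for the outer kinetochore, 0.57 for checkpoint and corona, 1.07 for the passenger complex and shugoshins, 0.95 for the kinesins, 0.60 for the spindle proteins and 0.34 for cytokinesis. The highest log2 ratios were those of SPC25 at 1.86 (1.53 to 2.19), KIF2C at 1.69 (1.22 to 2.17), NUSAP1 at 1.67 (1.52 to 1.82), BIRC5 at 1.57 (1.45 to 1.68) and KIF20A at 1.56 (1.10 to 2.03). The lowest were those of CENPC at -0.37 (-0.56 to -0.19), CKAP5 at -0.34 (-0.48 to -0.19), BUB3 at -0.30 (-0.36 to -0.23), MIS12 at -0.22 (-0.50 to 0.05) and NSL1 at -0.22 (-0.32 to -0.12). All 50 genes were also grouped, after these values had been seen, by their G1 percent of G2M in resistant monoculture, a library that this comparison does not use. The 8 genes under 10% had a median log2 ratio of 1.53, the 33 genes from 10 to 50% one of 0.60 and the 9 genes at 50% or more one of -0.19. The groups overlapped, from 0.08 (CENPA) to 1.86 in the first, from -0.30 (BUB3) to 1.57 in the second and from -0.37 (CENPC) to 0.72 (CENPW) in the third. The first group rests largely on genes with few G1 UMIs. After thinning to 5000 UMIs per cell, CENPA, NDC80, SPC25, KIF2C, KIF14 and KIF20A had no ratio. NDC80, SPC25, KIF2C and KIF20A also had none after the subtraction of library RNA described further on. The median of this group could therefore not be followed in those alternatives. Of the 36 other genes of the pathway 29 were higher and 13 more than 2-fold higher, with a median of 0.70.

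Within G2M cells the direction was the other way and the differences were smaller. Of the 50 genes 10 were higher in sensitive coculture, beside 4062 of all 10172 genes tested. None of the 50 was 2-fold apart in either direction (all genes: 1.14% higher and 0.875% lower). Their median log2 ratio was -0.19, beside -0.08 over all genes. By counting error alone 27 genes had an interval below 0 and 3 above it, beside 24.9 and 11.8% of all genes. The lowest were CENPA at -0.70 (-0.88 to -0.51), ANLN at -0.62 (-0.75 to -0.49), CENPE at -0.53 (-0.66 to -0.40), NUF2 at -0.52 (-0.67 to -0.37) and KIF14 at -0.47 (-0.67 to -0.28). The highest were KIF18A at 0.36 (0.03 to 0.69), KIF22 at 0.20 (0.09 to 0.32), CENPO at 0.15 (-0.27 to 0.57), NUSAP1 at 0.09 (0.02 to 0.16) and CKAP2 at 0.06 (-0.05 to 0.18). Scaled by trimmed means (TMM) the median was -0.10 and 17 genes were higher, TPX2 among them. The sensitive monoculture G2M level rests on 190 cells.

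**Figure D4:**
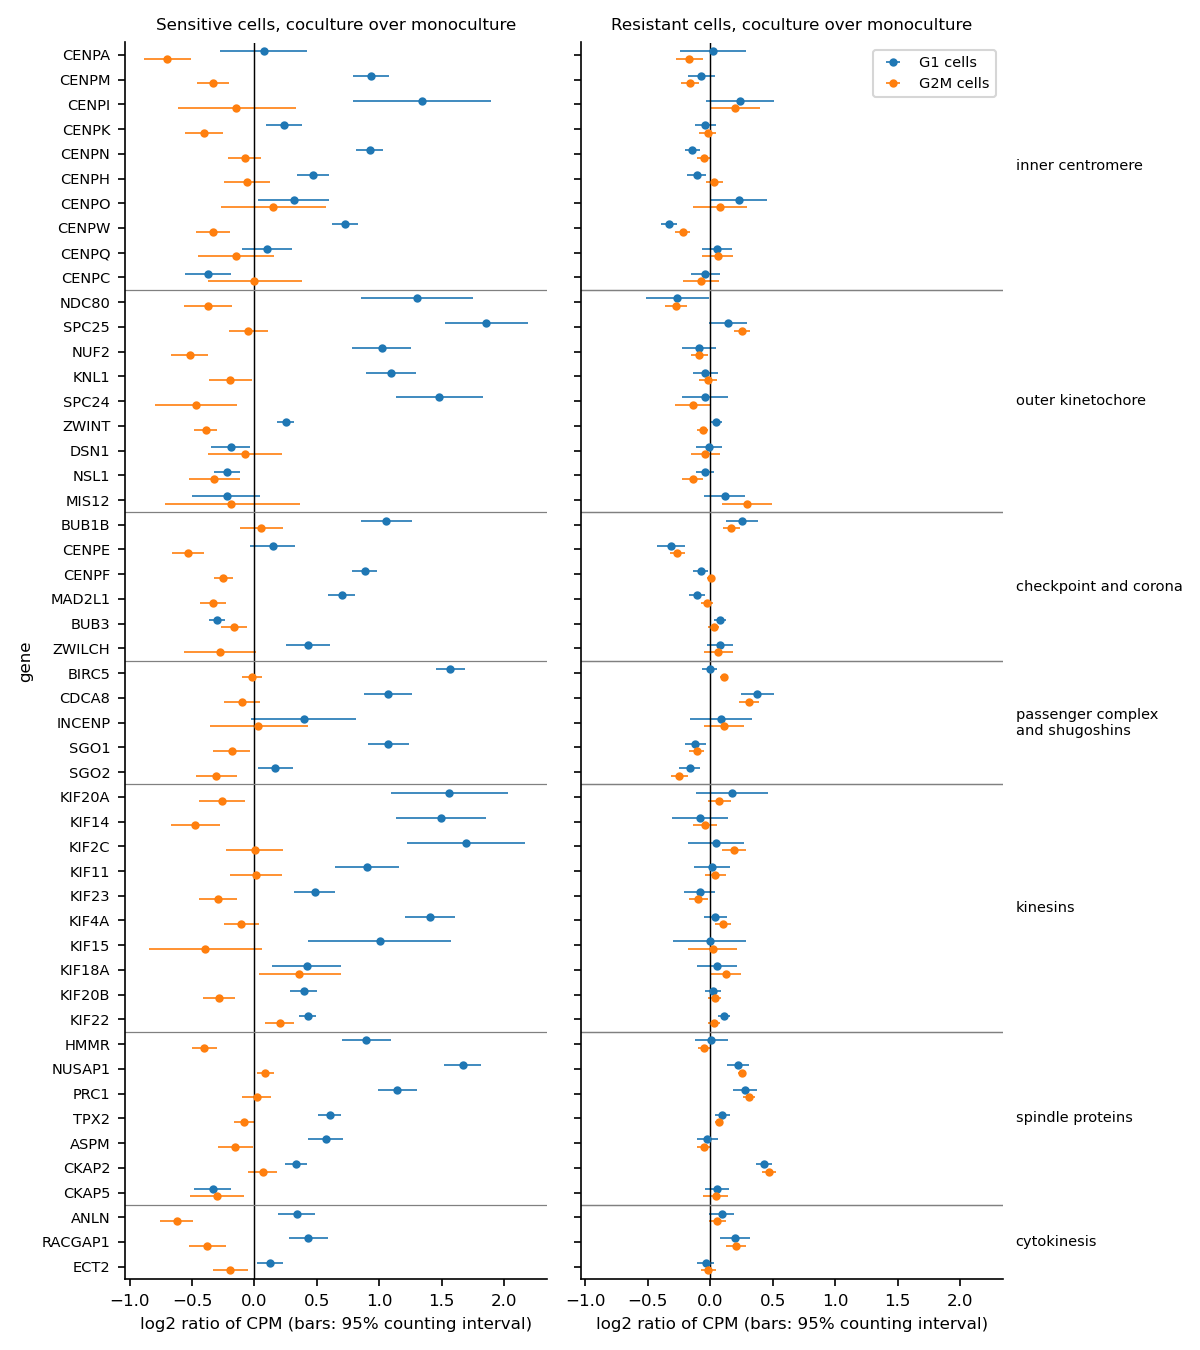
Log2 ratio of CPM, coculture over monoculture, for each of the 50 genes (rows, by role) in sensitive cells (left) and resistant cells (right), in G1 (blue) and G2M (orange) cells, with 95% counting intervals as bars. In sensitive cells the blue points reach from -0.37 (CENPC) to 1.86 (SPC25) and the orange points from -0.70 (CENPA) to 0.36 (KIF18A), and in resistant cells all points lie between -0.33 and 0.47.

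In resistant cells the same 50 genes differed little between coculture and monoculture. The median log2 ratio was 0.02 in G1 (27 of 50 higher, beside 7180 of all 12483 genes tested) and 0.03 in G2M (28 higher, beside 6107 of 11781). None of the 50 was more than 2-fold higher in either phase, beside 0.545% of all genes in G1 and 0.357% in G2M. With TMM scaling the medians turned to -0.05 and -0.0046 and 17 and 24 genes were higher, so the list had no direction that held under both scalings. CKAP2 (0.43 (0.37 to 0.50) in G1 and 0.47 (0.41 to 0.52) in G2M), CDCA8 (0.38 (0.24 to 0.51) and 0.31 (0.23 to 0.39)) and PRC1 (0.28 (0.18 to 0.37) and 0.31 (0.26 to 0.36)) were the 3 highest in both phases. CENPW (-0.33 (-0.39 to -0.27) and -0.22 (-0.28 to -0.16)), CENPE (-0.32 (-0.43 to -0.20) and -0.26 (-0.32 to -0.21)), NDC80 (-0.26 (-0.52 to -0.01) and -0.28 (-0.36 to -0.19)) and SGO2 (-0.16 (-0.25 to -0.08) and -0.25 (-0.32 to -0.18)) were the 4 lowest in both. These genes kept their sign under TMM scaling. Counting intervals lay on opposite sides of 0 in the lineages for 9 of the 50 genes in G1 and 2 in G2M, close to the 17.2 and 6.03% of all genes. That the sensitive and the resistant cells differ in their response to coculture was not tested, since each rests on 1 library a side. BUB1B at 0.25 (0.12 to 0.38) and CENPI at 0.24 (-0.03 to 0.51) followed among the highest in G1, and MIS12 at 0.29 (0.09 to 0.49) and SPC25 at 0.25 (0.19 to 0.32) in G2M. CENPN at -0.14 (-0.20 to -0.09) in G1 and CENPA at -0.17 (-0.28 to -0.06) in G2M completed the 5 lowest.

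Resistant over sensitive monoculture uses the sensitive monoculture library of the first comparison again, so its values stand beside the former and are no second observation of that library. In G1 cells 42 of the 50 genes were higher in resistant monoculture, beside 4818 of all 12480 genes tested. Of the 50 genes 18 were more than 2-fold higher, beside 4.65% of all genes. Their median log2 ratio was 0.69, beside -0.13 over all genes. At 1.5-fold 28 were higher, beside 9.48% of all genes, and at 3-fold 4, beside 1.91%. SPC25 at 2.06 (1.79 to 2.35), KIF2C at 1.91 (1.53 to 2.31), KIF4A at 1.86 (1.70 to 2.02), BIRC5 at 1.69 (1.60 to 1.79) and SPC24 at 1.54 (1.26 to 1.83) were the highest. BUB3 at -0.44 (-0.48 to -0.39), CENPO at -0.33 (-0.55 to -0.10), CENPA at -0.26 (-0.53 to 0.00), CKAP2 at -0.26 (-0.33 to -0.19) and NSL1 at -0.19 (-0.26 to -0.12) were the lowest. In G2M cells the median was -0.21 (all genes -0.06), and 12 genes were higher, beside 4910 of all 11292 genes tested. Over the 32 genes outside the Seurat lists the median was -0.10 with 11 higher, and over the 18 on them -0.25 with 1 higher. In cells with at least 2 transgene UMIs the median over the 50 genes was -0.09. Of the 50 genes 2 were more than 2-fold lower, beside 4.5% of all genes. These 2 were CENPA at -1.16 (-1.32 to -0.995) and RACGAP1 at -1.005 (-1.13 to -0.87), followed by CENPM at -0.89 (-1.004 to -0.77), CDCA8 at -0.88 (-1.02 to -0.75) and ANLN at -0.74 (-0.85 to -0.63). KIF18A at 0.32 (0.02 to 0.62), CENPN at 0.28 (0.17 to 0.40), CENPC at 0.21 (-0.11 to 0.55), CENPH at 0.18 (0.02 to 0.34) and DSN1 at 0.16 (-0.09 to 0.42) were the highest. TMM scaling shifted this comparison by 0.14 in G1 and 0.13 in G2M. Relative to that shift the medians were 0.83 and -0.08, 44 and 21 of the 50 genes were higher, and CENPA alone remained more than 2-fold lower in G2M.

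Within the coculture library, where the lineages shared spheroids and library, the median log2 ratio of resistant over sensitive cells was 0.10 in G1 and 0.05 in G2M. The G1 median went with the processing from 0.02, among cells under 15% mitochondrial counts, to 0.23, with the library RNA described further on subtracted. That value covers 47 genes, which had 0.12 before. Subtracting the share of resistant RNA given further on gave 0.30, but that share was not measured in the cells analysed here. Over the 32 genes outside the Seurat lists, without subtraction, the G1 median was 0.21. None of the 50 genes was more than 2-fold higher in G1 (2.05% of all genes) or 2-fold lower in G2M (2.39%). In G2M CENPO at -0.75 (-1.01 to -0.48), CENPM at -0.72 (-0.81 to -0.62), CENPA at -0.63 (-0.77 to -0.48), CDCA8 at -0.47 (-0.57 to -0.37) and RACGAP1 at -0.42 (-0.52 to -0.31) were the lowest. MIS12 at 0.54 (0.22 to 0.88), ZWILCH at 0.36 (0.18 to 0.54), CENPN at 0.31 (0.23 to 0.39), CENPH at 0.27 (0.16 to 0.38) and ASPM at 0.25 (0.16 to 0.34) were the highest. In G1 CENPM at -0.59 (-0.72 to -0.45), KIF23 at -0.45 (-0.61 to -0.29), CENPO at -0.41 (-0.69 to -0.13), KIF14 at -0.39 (-0.68 to -0.09) and RACGAP1 at -0.37 (-0.52 to -0.21) stood at the low end. MIS12 at 0.49 (0.23 to 0.76), KIF4A at 0.49 (0.34 to 0.64), CENPI at 0.44 (0.02 to 0.87), KIF20B at 0.43 (0.33 to 0.53) and KNL1 at 0.38 (0.22 to 0.55) stood at the high end. CENPA, CENPM, CDCA8 and RACGAP1 were thus lower in resistant than in sensitive G2M cells within the shared library as well as between the monocultures.

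The values so far are sums over cells, so the 50 genes were also counted cell by cell after every cell had been thinned to 5000 UMIs. A G1 cell had a UMI for a median of 3 of the 50 genes in sensitive monoculture and of 4 in each other population, and a G2M cell for a median of 15, 14, 13 and 13. At least 5 of the genes were detected in 20.9% (19.4 to 22.4) of G1 cells of sensitive monoculture and 39.2% (36.3 to 42.1) of those of sensitive coculture, against 44.4% (42.6 to 46.1) and 45.0% (43.4 to 46.6) of resistant G1 cells in coculture and monoculture. None was detected in 6.18% (5.34 to 7.10), 2.20% (1.43 to 3.23), 2.21% (1.72 to 2.79) and 2.59% (2.11 to 3.15) of G1 cells. The top 10% of G1 cells held 24.2% of the 50 genes' UMIs in sensitive monoculture and 20.7 to 21.2% in the other populations. The mean was 3.34 such UMIs per thinned G1 cell in sensitive monoculture and 4.63 to 4.88 in the others. Such a share rises as the mean of a count falls, so it does not measure concentration in few cells alone.

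**Figure D5:**
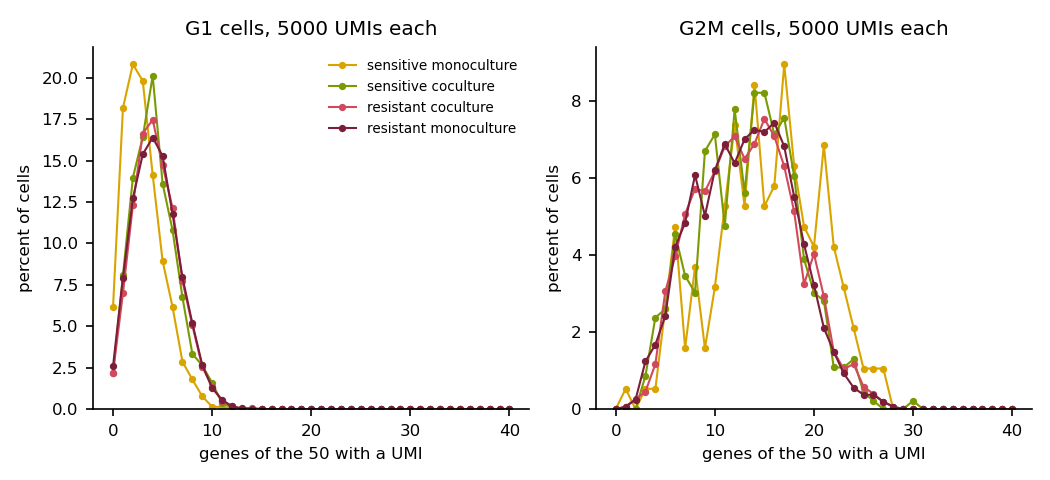
Percent of cells (vertical axis) by the number of the 50 genes with at least 1 UMI (horizontal axis) in G1 cells (left) and G2M cells (right), each cell thinned to 5000 UMIs, 1 line per population. In G1 the line of sensitive monoculture is shifted to the left (median 3, against 4), and in G2M the 4 lines overlap widely (medians 13 to 15).

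BIRC5 had a UMI in 4.83, 15.1, 18.0 and 17.6% of thinned G1 cells and in 68.7 to 71.1% of thinned G2M cells, and unthinned in 19.3, 56.2, 56.5 and 61.4% of G1 cells. NUSAP1 had one in 3.78, 10.2, 10.3 and 9.12% of thinned G1 cells (unthinned 15.6, 45.7, 42.2 and 41.9%). Without thinning, the deeper cells give higher shares, which is why the thinned values are compared. KIF20A had a UMI in 0.236, 0.967, 1.06 and 1.01% of thinned G1 cells (unthinned 2.29, 7.73, 5.60 and 5.71%) and in 25.3, 17.7, 14.4 and 13.3% of thinned G2M cells. CENPC had one in 6.04, 4.31, 5.60 and 5.87% of thinned G1 cells (unthinned 26.5, 23.8, 26.7 and 30.6%).

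No cell type in these libraries should lack the 50 genes, so the part of free RNA in their G1 levels has no direct control. If RNA of the library's own average makeup lay in every G1 cell, it could make up at most 16.9, 15.8, 15.5 and 17.0% of the G1 UMIs, the shares at which KIF20A (SPC25 in sensitive coculture) would reach 0. After that subtraction, an alternative chosen after seeing the data, the G1 sums were 616, 738, 792 and 779 CPM, and the median G1 log2 ratio was 0.37 between the sensitive populations, over the 46 genes that kept a ratio (without NDC80, SPC25, KIF2C and KIF20A), and 0.41 between the monocultures, over 48 (without NDC80 and KIF20A). Without the subtraction the same genes had medians of 0.47 and 0.66. Of 1604 coculture barcodes with 2 or more mVenus UMIs, 187 held 285 mCherry UMIs, which would correspond to 5.99% resistant RNA over the 1604. All of these mCherry UMIs lay in barcodes that the authors did not annotate, and the 1127 annotated barcodes had 0. The share therefore does not measure free RNA in the cells analysed here. All annotated sensitive cells of coculture held 0 mCherry UMIs, and all annotated resistant cells of coculture held 0 mVenus UMIs. No annotated coculture cell thus held UMIs of the other lineage's transgene. Whether barcodes were left out for that reason was not tested. With that share subtracted all the same, the median G1 log2 ratio of the sensitive cells was 0.44, a value that does not bear on their free RNA.

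The mitochondrial percent moved with the result. In sensitive monoculture 461 cells had under 15% and 2868 had 15% or more, and 27.1% and 8.40% of them were in S or G2M. The summed level of the 50 genes in G1 cells was 829 CPM in cells under 15% and 670 CPM in the others for sensitive monoculture, and 1080 and 886 CPM for sensitive coculture. For resistant cells it was 1067 and 927 CPM in coculture and 1097 and 909 CPM in monoculture. Sensitive monoculture was the lowest on either side of that limit. Among cells under 15% the median log2 ratio of the sensitive populations was 0.56 over all phases, 0.47 in G1 and -0.20 in G2M. The G1 value covers 45 genes, since CENPI, NDC80, INCENP, KIF15 and KIF20A fell under the UMI minimum, and the same 45 had a median of 0.48 in all G1 cells. The part of cell quality in the remaining difference was not tested.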

How the data were processed

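Single cell RNA-seq (10X 3′ chemistry) was analysed in 3 libraries, 1 per condition. According to their notes and methods, the authors aligned reads to GRCh37 and counted UMIs with Cell Ranger 3.0.2, kept cells with 3000 to 7000 genes, 2000 to 60000 UMIs and under 30% mitochondrial counts, removed predicted doublets, retained cells with 2 or more UMIs of either transgene and called lineage and phase; the count tables hold the deposited whole UMI counts per gene and barcode, and the mitochondrial percent is the authors' deposited value per cell. No further doublet call was made. Deposited lineage and phase were joined to the counts by library and barcode. In the deposited counts 1314 of 3329 and 1127 of 2059 sensitive cells (monoculture, coculture) and 3932 of 6292 and 3446 of 7557 resistant cells (coculture, monoculture) had 2 or more UMIs of their own transgene, so that limit was run as an alternative. Rows without a gene symbol held 0.523 to 0.591% of UMIs and were left out. UMIs were summed by population and phase and expressed as CPM, and log2 ratios were taken without a pseudocount for genes with at least 50 UMIs over both sides, with exact conditional 95% intervals (Poisson for levels, Clopper-Pearson for shares) that cover counting error only. A gene past 2-fold was counted as called. TMM factors (edgeR 4.0.16, R 4.3.3) were used as a scaling only. Scripts used Python 3.11.15, numpy 2.4.6, scipy 1.17.1, pandas 2.3.3 and matplotlib 3.10.9. The code for the ratios was run on simulated Poisson counts without spread between cells or libraries, which checks the code and not the ratios of these data. The 50 genes, the lists and the tests were chosen with earlier results of these data known. The rule for genes named with full values took the 3 genes per role with the highest CPM in resistant monoculture G2M cells and the 5 highest and 5 lowest genes of each comparison; ratios between populations are printed for G1 and G2M only; further genes were named after their values were seen. Alternatives were the pseudocount, TMM, the UMI minimum, transgene UMIs, mitochondrial percent, depth, equal weight of cells, anew called phases, thinning, subtraction of free RNA, equal phase shares and the fold threshold.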

Additional observations from a re-analysis of the deposited data

Results flagged for a closer look

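Counting intervals lay on opposite sides of 0 in the lineages, when coculture was set against monoculture, for 9 of the 50 genes in G1 and 2 in G2M, near the share of all genes tested (17.2 and 6.03%); the difference between the lineages was not tested, since each side is 1 library. In G1 cells the log2 ratios of the sensitive and then the resistant cells were 0.47 and -0.11 for CENPH, 0.92 and -0.14 for CENPN and 0.72 and -0.33 for CENPW, all of the inner centromere. For NDC80, the microtubule binding subunit, they were 1.30 and -0.26. Of the checkpoint and corona genes MAD2L1 had 0.70 and -0.11, CENPF 0.88 and -0.077, and BUB3, in the other direction, -0.30 and 0.080. The shugoshins SGO1 and SGO2 had 1.07 and -0.12, and 0.17 and -0.16. In G2M cells RACGAP1, of centralspindlin, had -0.38 and 0.21, and TPX2, the activator of Aurora A, had -0.087 and 0.069. The sign of TPX2 in sensitive cells turned with TMM scaling.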

How the results depend on the processing

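Over the alternatives 174 values stayed within a range set by the interval limits of the genes (for counts, within 1.5 times). That range runs from the median over the genes of the lower limits to that of the upper limits. It is about as wide as the interval of a typical single gene and is not the counting error of a median. Past it moved 22 values, and 1 changed direction where the range lay off 0. Among the 174, the medians at lower UMI minima were fixed in advance. All 50 genes already passed the minimum of 50 UMIs in every comparison, with UMIs on both sides. In all 7 medians changed sign, each of resistant coculture over monoculture: 4 in G1, 2 in G2M and 1 over all phases. The median log2 ratio over the genes between sensitive coculture and monoculture stayed between 0.37 and 0.65 in G1 and between -0.22 and -0.10 in G2M; over all phases it was 0.56 among cells under 15% mitochondrial counts and 0.011 at equal phase shares, and in G1 it was 0.37 with library RNA subtracted. Genes under the UMI minimum drop out of some of these medians: in G1 45 genes were left under 15% mitochondrial counts, 40 after thinning and 46 after the subtraction, with medians of 0.47, 0.53 and 0.37, and the same genes had 0.48, 0.45 and 0.47 before. Between the resistant populations, over all phases, it was 0.00086 with TMM and -0.0011 in cells with at least 2 transgene UMIs, against 0.07. Resistant over sensitive monoculture, over all phases, gave 1.13 with TMM, 1.10 with at least 2 transgene UMIs, 0.57 under 15% mitochondrial counts, 1.13 at equal weight of cells and 0.070 at equal phase shares, and in G1 0.41 with library RNA subtracted. Within coculture the G1 median was 0.30 with resistant RNA subtracted, at a share that was not measured in the analysed cells. G2M over G1 in sensitive monoculture was 2.88 with a pseudocount of 1 CPM, 2.79 under 15% mitochondrial counts and 2.63 for the genes outside the Seurat lists. For those genes it was 1.71 in resistant coculture and 1.74 in resistant monoculture, where the pseudocount gave 1.82. Counts of higher genes moved with the threshold: in sensitive cells 3 in G1 at 3-fold (0.601% of all genes), and 39 and 4 over all phases at 1.5-fold and 3-fold (8.6 and 0.909% of all genes), and between the monocultures in G1 28 and 4 (9.48 and 1.91%). The subtraction of library RNA and the restriction to genes outside the Seurat lists were chosen after seeing the data. Except where the construction of an alternative fixes it, as with phase shares and thresholds, the cause was not tested. No paired analysis was possible because each condition has 1 library, and leaving out a replicate was not possible for the same reason. The S and G2M values of sensitive monoculture rest on 176 and 190 cells.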
